A study of Mus musculus with 6 samples.

Results

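The genes described here encode the proteins of the cytosolic ribosome, and they were taken from bulk RNA-seq of mouse embryonic stem cells (mESCs) and of cardiac precursor cell cultures (CPCCs). Members were chosen by symbol, as every listed gene named *Rpl* or *Rps* followed by a number, plus *Rpsa*, *Rplp0*, *Rplp1* and *Rplp2*, without rows ending in "-ps" and without the S6 kinase genes. This gave 85 genes, 52 of the large subunit and 33 of the small, of the 16279 genes that either count table lists. All 85 are in the mESC table, and 84 are in the CPCC table. GENCODE M21 calls 83 of them protein coding. The other two are *Rpl32l*, a processed pseudogene there, and *Rps4l*, a transcribed processed pseudogene, which the symbol rule takes in.

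The mESCs were male F1 cells with a C57BL/6J mother and a CAST/EiJ father, grown without feeders in 2i medium with LIF, as 3 clones, each grown from a single cell of a line derived from a different blastocyst. The CPCCs were derived from those clones through hanging drops and embryoid bodies with ascorbic acid, then grown in medium with EGF and Fgf2. They are mixed cultures, so a CPCC value is an average over several cell types. Each group has 3 libraries, named here by their columns as S01, S02 and S03 (mESC) and S04, S05 and S06 (CPCC), since the columns do not say which clone a library came from.

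Ribosomal proteins are made in near-equal amounts to match the ribosomal RNA that RNA polymerase I transcribes. Many of their mRNAs begin with a 5′ terminal oligopyrimidine (TOP) tract, through which mTOR and Larp1 control their translation. Mammalian genomes also hold a few expressed paralogs with restricted patterns and a large number of processed pseudogenes, copies of spliced mRNAs that resemble the parent gene. Rapidly dividing stem cells are known for active ribosome production.

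Library totals lay between 6442639 and 11436062 counts, the deepest being S04. Of 6 pluripotency markers, all fell in CPCCs, and their summed level was 2018 to 2542 per 1000000 counts in mESC libraries against 91.2 to 173.9 in CPCC libraries. The sum of 6 mesenchymal markers went from between 8.69 and 13.8 to between 11817 and 16658. The 8 cardiac markers summed to 3.97 to 4.63 in mESCs and to 137.2, 43.5 and 62.2 in S04, S05 and S06, with *Tbx5* listed for mESCs only and *Nkx2-5* at 16, 0 and 8 counts in CPCCs. The sum of the 4 neural markers went from between 13.3 and 21.3 to between 307.2 and 450.6, that of the 4 endothelial ones from between 91.4 and 101.4 to between 11.4 and 20.99 (carried by *Pecam1*, which fell, while *Cdh5* and *Kdr* are listed for CPCCs only and *Tek* was not called), and of 4 blood markers only *Ptprc* is listed, at 0.354 to 13.7 in CPCCs. The part of these cell types in the changes below was not tested, and in bulk samples fewer cells of a type and less RNA per cell cannot be told apart. Each group sits in a table of its own, so a difference in how the tables were made cannot be told apart from the cell type.

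Reads from a ribosomal protein gene and from its copies can only be separated where the sequences differ, so the sequences behind the clearest contrast among the paralogs are shown first. *Rpl39* and *Rpl39l* encode alternative versions of a very small protein that lines the exit tunnel. *Rps27* and *Rps27l* encode alternative versions of a small subunit protein, and *Rps27l* is known as a p53 target. These are spliced coding sequences of GENCODE M21 (GRCm38), with the bases that differ within the pair in capitals. The genes lie at chr16:10170228-10174912 (plus strand, *Rpl39l*), chrX:37082518-37085223 (minus strand, *Rpl39*), chr9:66946076-66949523 (plus strand, *Rps27l*) and chr3:90212667-90213649 (minus strand, *Rps27*), as the tables give them.
Rpl39l: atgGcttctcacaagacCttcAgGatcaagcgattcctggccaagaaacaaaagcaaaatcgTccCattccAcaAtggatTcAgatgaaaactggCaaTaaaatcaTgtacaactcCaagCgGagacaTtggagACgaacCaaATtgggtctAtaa
Rpl39: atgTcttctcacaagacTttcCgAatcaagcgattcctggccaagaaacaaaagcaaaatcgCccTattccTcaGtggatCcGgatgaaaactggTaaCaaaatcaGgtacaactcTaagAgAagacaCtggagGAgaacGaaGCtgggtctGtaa
Rps27l: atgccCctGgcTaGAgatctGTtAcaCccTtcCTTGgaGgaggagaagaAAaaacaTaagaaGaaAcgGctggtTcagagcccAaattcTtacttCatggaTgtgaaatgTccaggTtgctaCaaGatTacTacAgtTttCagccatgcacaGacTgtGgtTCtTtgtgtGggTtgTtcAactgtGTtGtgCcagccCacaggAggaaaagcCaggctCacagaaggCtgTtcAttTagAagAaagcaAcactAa
Rps27: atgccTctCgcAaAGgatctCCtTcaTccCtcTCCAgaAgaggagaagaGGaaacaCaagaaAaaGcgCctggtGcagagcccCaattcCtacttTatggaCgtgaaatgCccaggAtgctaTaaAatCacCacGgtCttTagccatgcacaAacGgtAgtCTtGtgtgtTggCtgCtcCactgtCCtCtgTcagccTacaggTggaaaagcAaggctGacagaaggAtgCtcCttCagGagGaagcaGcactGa

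*Rpl39l* and *Rpl39* differ at 23 of 156 bases (85.3% identical), and their longest run without a difference is 38 bases. *Rps27l* and *Rps27* differ at 61 of 255 bases (76.1% identical), with a longest shared run of 11 bases. Of the paralogs, the identity to the parent gene was lowest in *Rpl7l1* (62.6%), and *Rpl36al* reached 87.9%. *Rpl32l* is 96.04% identical to *Rpl32*, close enough to count as one of its near-identical copies below. A read of the length used in the study is longer than the shared runs of the *Rpl39* and *Rps27* pairs.

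The ribosomal protein genes took a smaller share of the counts in CPCCs than in mESCs. Their share was 3.32% in S01, 3.33% in S02 and 3.00% in S03, against 1.11% in S04, 1.45% in S05 and 1.54% in S06. Every CPCC library thus lay below every mESC library, with a mean of 32186 ± 1888 per 1000000 counts in mESCs (SD, n = 3) and 13638 ± 2265 in CPCCs (SD, n = 3). The ratio of the means was 2.36, and 2.16 without S04, the CPCC library with the lowest share. Both subunits took part to a like extent, with ratios of 2.38 for the large and 2.31 for the small subunit.

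**Figure D1:**
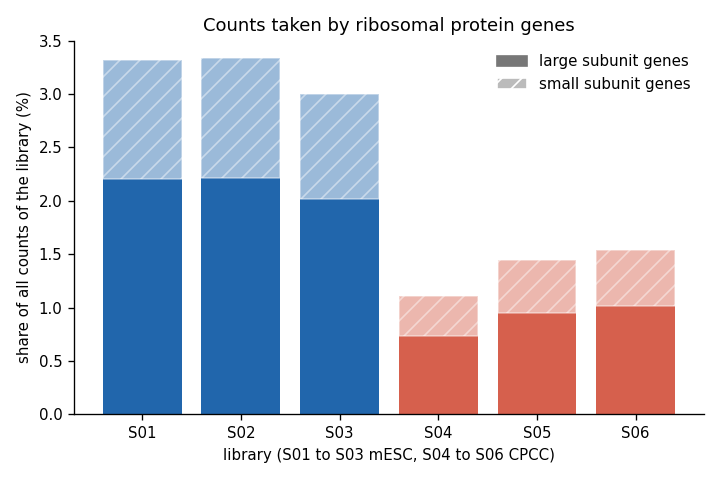
Bars give the share of each library's counts, in percent, that fell on ribosomal protein genes, with large subunit genes below and hatched small subunit genes on top. The 3 mESC libraries (blue) reach between 3.00% and 3.33%, and the 3 CPCC libraries (red) between 1.11% and 1.54%.

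Gene by gene, 81 of the 84 genes tested were lower in CPCCs and 0 were higher (adjusted p under 0.05, by the quasi-likelihood test of edgeR, adjusted after Benjamini and Hochberg over 12471 genes). That is 96.4% of those tested, where 29.7% of all genes tested were lower and 31.7% higher. DESeq2 called the same numbers, 81 and 0, and with no member at a log2 fold change above 0 there was none at an unadjusted p under 0.05 in that direction. In the same 81 genes every CPCC library lay below every mESC library, which held for 34.5% of all genes tested. The median log2 fold change of the 84 genes was -1.17, a level 2.25 times higher in mESCs, beside 0.03 over all genes tested. The genes lay close together, with a distance of 0.40 between the quartiles (-1.38 and -0.98) against 1.97 over all genes. Among the 84 genes, 61 had a called fall of 2-fold or more, against 19.5% of all genes tested. Among the CPCC libraries, S04 held the lowest level of 63 of the 84 genes. The median log2 change against the mESC mean was -1.31 in S04, -1.12 in S05 and -1.11 in S06.

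**Figure D2:**
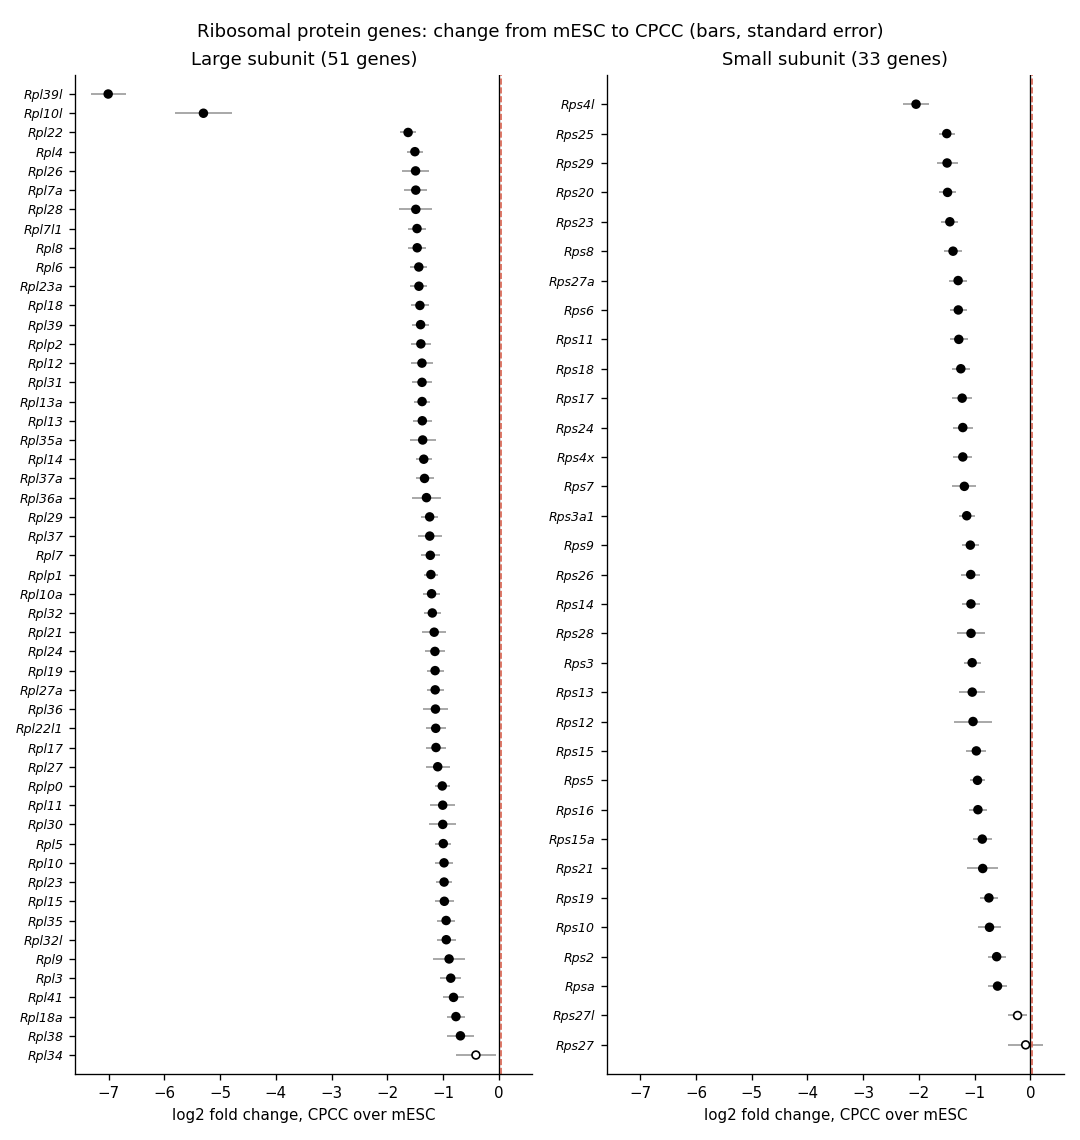
Points give the log2 fold change of CPCC over mESC for each of 84 ribosomal protein genes, 51 of the large and 33 of the small subunit, with the standard error as a bar. Filled points passed an adjusted p of 0.05, open points (*Rpl34*, *Rps27l*, *Rps27*) did not, the solid line marks no change and the dashed line the median of all genes (0.03). Apart from *Rpl39l* (-7.01), *Rpl10l* (-5.30) and *Rps4l* (-2.05), the points lie between -1.63 and -0.08.

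The subunits had similar medians. Without the paralogs, 45 of 46 large subunit genes and 30 of 31 small subunit genes fell, with medians of -1.21 and -1.07 and distances between the quartiles of 0.37 and 0.32. No test of the difference between the subunits was made. Genes mutated in Diamond-Blackfan anaemia, an inherited failure of red cell production, fell in 17 of 18 cases with a median of -1.08. These counts stand beside the 96.4% of all members tested, and the 29.7% of all genes tested, that were lower. The 4 X-linked genes all fell, *Rpl39* by 1.40, *Rpl36a* by 1.30, *Rps4x* by 1.21 and *Rpl10* by 0.98 on the log2 scale. With male cells in both groups, these genes had 1 X chromosome copy in each.

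Apart from the paralogs, the large subunit genes with the largest falls were *Rpl22*, *Rpl4* and *Rpl26*. *Rpl22* (chromosome 4, 152324436 to 152334083), which encodes an RNA-binding protein of the large subunit, stood at 543, 479 and 525 CPM (normalised counts on a scale of 1000000 per library) in S01 to S03 and at 172, 157 and 172 CPM in S04 to S06. The groups lay far apart, at a level 3.09 times higher in mESCs, and the log2 fold change was -1.63 (SE 0.15, adjusted p = 2.45e-05, edgeR). *Rpl4*, whose protein reaches into the exit tunnel, went from 1067, 1012 and 1239 CPM to 405, 371 and 392 CPM, a log2 fold change of -1.51 (SE 0.15). *Rpl26*, whose protein sits at the tunnel's mouth, was less even within mESCs, at 68.5, 43.0 and 40.8 CPM, and stood at 17.9, 18.6 and 17.5 CPM in CPCCs, a change of -1.49 (SE 0.25). *Gm15772*, a copy 99.5% identical to *Rpl26* and listed within its span on chromosome 11, held more counts. It stood at 298, 300 and 312 CPM in mESCs and at 109, 130 and 123 CPM in CPCCs (-1.33, SE 0.15). The level, evenness and rank of *Rpl26* alone are therefore uncertain. In the small subunit the largest falls among the genes that are not paralogs were those of *Rps25* and *Rps29*. *Rps25*, known for its part in internal initiation, went from 774, 763 and 726 CPM to 239, 278 and 283 CPM (-1.50, SE 0.15). *Rps29*, a small zinc-binding protein, went from 77.6, 79.6 and 59.9 CPM to 24.6, 25.96 and 26.5 CPM (-1.49, SE 0.19).

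The genes of the P stalk, the arm of the large subunit that binds translation factors, fell together. *Rplp0*, its base, went from 1200 ± 60 to 595 ± 15 CPM (SD, n = 3 each), a log2 fold change of -1.02 (SE 0.13). *Rplp1* went from 2033 ± 124 to 873 ± 19 CPM (-1.22, SE 0.13). *Rplp2* had a far lower count of its own, 74.6 ± 6.9 against 28.3 ± 3.5 CPM (-1.40, SE 0.18). *Rpl5* and *Rpl11*, whose proteins join 5S ribosomal RNA and bind Mdm2, fell by 0.997 (SE 0.14) and 1.01 (SE 0.23) on the log2 scale. *Rps6*, the substrate of the S6 kinases, went from 268, 261 and 247 CPM to 92.3, 110.2 and 113.9 CPM (-1.29, SE 0.16). *Rps27a*, which is made as a fusion with ubiquitin, went from 197 ± 19 to 80.3 ± 7.1 CPM (-1.30, SE 0.16). None of these groups overlapped between the cell types.

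The 3 members with the most counts were *Rpl41*, *Rpl8* and *Rplp1*, which together held 24.5% of all member counts in mESCs and 26.2% in CPCCs. *Rpl41*, which encodes a peptide among the shortest known, stood at 3423, 3733 and 3156 CPM in mESCs. It was at 1467, 2244 and 2157 CPM in CPCCs, so that S04 lay well under the other two. Its log2 fold change of -0.81 (SE 0.18, adjusted p = 0.0041, edgeR) was among the smaller ones. *Rpl8*, a protein near the catalytic centre, went from 2529, 2577 and 2232 CPM to 736, 944 and 978 CPM (-1.47, SE 0.16).

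The smallest called falls were those of *Rpsa*, *Rps2* and *Rpl38*, named after their values were seen. *Rpsa*, also known as the laminin receptor, stood at 317, 370 and 305 CPM in mESCs and at 178, 244 and 239 CPM in CPCCs, with a change of -0.59 (SE 0.18, adjusted p = 0.017, edgeR). Its call was lost without S02 (adjusted p = 0.080, edgeR), as was that of *Rps2* (-0.60, and an adjusted p of 0.055 without S02, edgeR). *Rpl38*, known for its part in Hox mRNA translation, changed by -0.69 (SE 0.25, adjusted p = 0.037, edgeR). Its call was lost without S01, S02, S04, S05 or S06, with an adjusted p of up to 0.14 (edgeR). It was also lost where at least 10 counts were required in every library (adjusted p = 0.052, edgeR). Its counts were low, between 101 and 142 per library.

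The 3 genes that were not called were *Rpl34*, *Rps27l* and *Rps27*. *Rps27l* stood at 136, 131 and 123 CPM in mESCs and at 130, 111.5 and 91.6 CPM in CPCCs. S04 lay within the mESC range, and the log2 fold change was -0.23 (SE 0.18, adjusted p = 0.28, edgeR). *Rps27*, with the largest adjusted p and the smallest change of all 84, stood at 8.96, 9.27 and 10.7 CPM in mESCs and at 11.5, 8.25 and 7.45 CPM in CPCCs. Its groups overlapped, and the change was -0.08 (SE 0.31, adjusted p = 0.83, edgeR). *Rpl34*, named after its values were seen, stood at 20.9, 13.0 and 9.80 CPM against 9.25, 8.74 and 14.8 CPM (-0.41, SE 0.36, adjusted p = 0.35, edgeR). *Rpl34-ps1* is listed within the span of *Rpl34* on chromosome 3 and held more counts. It stood at 51.8, 53.3 and 43.3 CPM in mESCs and at 23.3, 20.6 and 24.5 CPM in CPCCs. With the counts of *Rpl34-ps1* added to *Rpl34*, the change was -0.92 and passed the threshold (adjusted p = 0.0036, edgeR). How reads were divided between the rows was not tested, so the values of *Rpl34* alone are uncertain.

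The paralogs covered both ends of the range. Of the 8 paralog members, 7 were tested and 6 fell, against 1 not called. *Rpl39l* (chromosome 16, 10170228 to 10174912), best known from male germ cells, had the largest fall. Counts of 1213, 1414 and 1188 in mESCs stood against 8, 13 and 18 in CPCCs, or 187, 208 and 174 CPM against 0.796, 1.58 and 2.06 CPM. The log2 fold change was -7.01 (SE 0.31, adjusted p = 1.31e-06, edgeR), a level 129 times higher in mESCs. *Rpl10l* (chromosome 12, 66283379 to 66284402), an autosomal retrogene of X-linked *Rpl10* that is needed in male meiosis, had counts of 650, 585 and 1069 in mESCs and of 23, 8 and 47 in CPCCs. S03 stood above the other mESC libraries, and the change was -5.30 (SE 0.51, adjusted p = 3.61e-05, edgeR).

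*Rps4l* (chromosome 6, 148354656 to 148355597), related to X-linked *Rps4x*, went from 447, 426 and 302 CPM to 71.7, 112 and 100.1 CPM, a change of -2.05 (SE 0.23). Of the other paralogs called, *Rpl7l1*, related to *Rpl7*, changed by -1.47 (SE 0.15), *Rpl22l1* by -1.13 (SE 0.18) and *Rpl32l* by -0.94 (SE 0.17). *Rpl22l1*, whose product and that of *Rpl22* can replace each other in the ribosome, stood at 151, 182 and 208 CPM in mESCs and at 82.1, 73.9 and 90.7 CPM in CPCCs. *Rpl3l* (chromosome 17, 24727829 to 24736150), the striated muscle version of *Rpl3*, is listed for mESCs only, with 10, 2 and 1 counts. As 2 of these 3 values are at or below 3 counts, the floor used for a gene that a table does not list, no fold is given.

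A ratio of a paralog to its parent within a library does not depend on how libraries are scaled. *Rpl39l* had 11.9%, 14.3% and 12.4% of the counts of *Rpl39* in mESCs and 0.162%, 0.259% and 0.358% in CPCCs. The log2 ratio went from -2.96 ± 0.14 to -8.66 ± 0.58 (SD, n = 3 each). *Rpl10l* had 36.3%, 30.0% and 62.4% of the counts of *Rpl10* in mESCs and 1.91%, 0.644% and 3.82% in CPCCs. The CPCC libraries differed widely among themselves on this ratio, but all lay below the mESC libraries. *Rps4l* had 44.2%, 43.1% and 35.7% of the counts of *Rps4x* in mESCs and 21.5%, 24.9% and 22.5% in CPCCs.

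*Rpl22l1* was the only pair of the 7 in which the groups did not overlap and the ratio was higher in CPCCs. It had 27.7%, 37.9% and 39.6% of the counts of *Rpl22* in mESCs and 47.7%, 47.2% and 52.8% in CPCCs. *Gm15421*, a copy 99.5% identical to *Rpl22l1*, held more counts than the gene itself. With it added, the ratio was 93.9%, 101.8% and 145.9% in mESCs and 188.4%, 133.3% and 147.5% in CPCCs, and the groups overlapped. *Rps27l* had more counts than its parent in every library, from 1119% to 1522%, with groups that overlapped. *Rps27* has 4 near-identical copies (defined below) and *Rps27l* has 0, and *Rpl36a* has 6. Counts of these parents may lie on other rows, so the size of their ratios is uncertain. With the counts of *Rps27rt* added to *Rps27*, the ratio was 933.3% to 1048% in mESCs and 1077% to 1229% in CPCCs, without overlap and higher in CPCCs. Both of these settings were added once the data had been seen. *Rpl36al*, an autosomal relative of X-linked *Rpl36a* that the symbol rule does not take in, had 2717% to 4029%, and the ratio of *Rpl7l1* to *Rpl7* lay between 39.4% and 52.9%, both with overlap. The 4 pairs without overlap (*Rpl39l*, *Rpl10l*, *Rps4l*, *Rpl22l1*) each had p = 0.10 in a two-sided exact permutation test, the smallest that 3 against 3 libraries can give, and 0.175 after Benjamini-Hochberg adjustment over the 7 pairs. The difference in log2 ratio was -5.70, -4.61, -0.83 and 0.50 in that order.

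**Figure D3:**
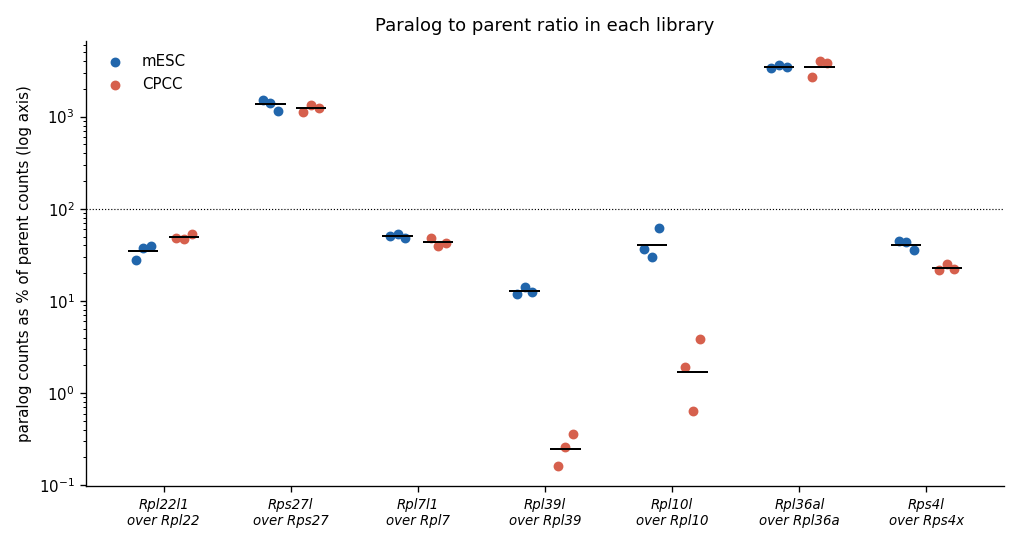
Points give the counts of a paralog as a percentage of its parent gene's counts in each library, on a log axis, for 7 pairs, with mESC libraries in blue, CPCC libraries in red, geometric means as short lines and equal counts as the dotted line at 100%. *Rpl39l* goes from between 11.9% and 14.3% to between 0.162% and 0.358% of *Rpl39*, whereas *Rps27l* stays between 1119% and 1522% of *Rps27*. Where a parent has near-identical copies, its counts may lie on other rows, and the size of the ratio is uncertain.

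The level of single genes, per length, varied widely for proteins that are needed in near-equal amounts. Over the 84 genes the mean level per kilobase of transcript lay between 15.0 and 6319 CPM in mESCs, with a median of 225.3. In CPCCs the median was 101.0 CPM per kilobase and the highest level 3596. *Rpl41* was highest in both groups, followed by *Rplp1* and *Rpl8*, whereas *Rpl28* was lowest in mESCs. The order of the genes was much the same in both cell types, with Spearman's rho of 0.954 across 84 genes, which share libraries and are not independent replicates. The lengths are those of 1 GENCODE transcript per gene. Those taken for *Rps15a* (5130 bases) and *Rps20* (3706 bases) are far longer than the median of 775 bases, so that their levels are likely understated. Other long ones, such as those of *Rpl7l1* (2606 bases) and *Rpl5* (2045 bases), may act alike, so levels and ranks per kilobase are approximate.

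Near-identical copies of the coding sequence, at least 95% identical over at least 80% of its length, were found in GENCODE for 78 of the 85 genes. There were 583 copies in all, with a median of 5 per gene and a maximum of 57 for *Rpl21*. The 6 tested genes without a copy had a median level of 527 CPM per kilobase in mESCs, those with 1 to 5 copies 249, those with 6 to 10 copies 186 and those with over 10 copies 165. Spearman's rho between the number of copies and the mESC level was -0.27 across 84 genes, a weak relation. The log2 fold change did not follow the number of copies, with rho of 0.04 and medians of -1.25, -1.14, -1.18 and -1.24 over the same 4 classes.

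**Figure D4:**
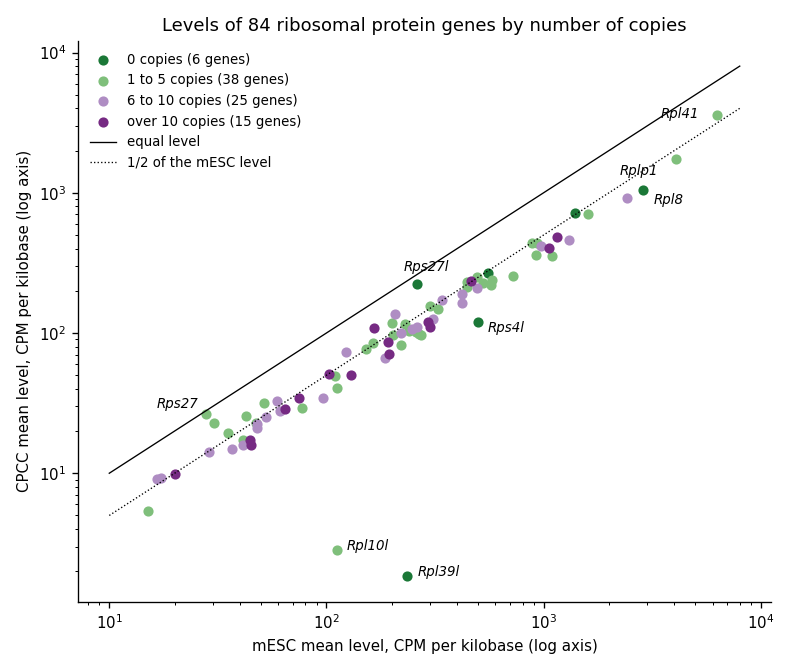
Points give the mean level of 84 ribosomal protein genes in CPCC against mESC libraries, in CPM per kilobase of transcript on log axes, coloured by the number of near-identical copies, with lines at equal levels and at 1/2 of the mESC level. Most genes lie near the dotted line over the whole range from 15.0 to 6319 CPM per kilobase, and *Rpl39l* and *Rpl10l* lie far below it.

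For some genes, chosen after their values were seen, a copy held most of the counts. *Rpl37rt*, 99.7% identical to *Rpl37*, stood at 2061 ± 80 CPM in mESCs and 735 ± 64 CPM in CPCCs (SD, n = 3 each), while *Rpl37* itself stood at 34.3 ± 5.2 and 14.5 ± 0.3 CPM. *Rplp2-ps1* stood at 1675 ± 169 and 688 ± 71 CPM, against the 74.6 and 28.3 CPM of *Rplp2*. *Gm5148*, 100% identical to *Rps23* over the aligned coding sequence, stood at 1291 ± 69 and 561 ± 105 CPM, against 182 and 66.7 CPM for *Rps23*. Counts alone do not show which of the rows a read came from, so the level of a single such gene is uncertain. The rows of the copies were lower in CPCCs as well. Of 16 such rows in both tables that are pseudogenes or single-exon genes, 14 were tested. Of these, 12 fell and 0 rose, with a median log2 fold change of -1.15, where 29.7% of all genes tested were lower. Such rows can share reads with the members, so their fall is not a separate result. *Gm15772*, *Gm12191*, *Rpl34-ps1* and *Rps27rt* overlap the listed spans of *Rpl26*, *Rpl30*, *Rpl34* and *Rps27*. With the counts of the copy rows added to the members, 82 members were lower and the median was -1.16. This setting was added once the data had been seen.

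Ribosomal or ribosome-bound proteins listed under other symbols were lower in CPCCs too. *Rack1*, a scaffold on the small subunit, changed by -1.05 (SE 0.14), *Fau*, a ubiquitin-like protein fused to a small subunit protein, by -1.13 (SE 0.17) and *Rpl36al* by -1.28 (SE 0.20).

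Other mRNAs with a TOP tract, which encode translation factors and related proteins, fell in 10 of 13 cases and rose in 0, with a median of -0.76. The largest falls were those of *Nap1l1*, a histone chaperone (-1.30, SE 0.22), and *Eef1g*, an elongation factor subunit (-1.24, SE 0.14). *Eef2*, the translocation factor, stood at 738 ± 64 CPM in mESCs and 736 ± 62 CPM in CPCCs and was not called, which was noticed after its values were seen. Of 9 regulators of TOP mRNAs and ribosome production, 2 fell and 1 rose. *Mycn*, a Myc family member, went from 95.04 ± 46.2 to 23.7 ± 5.6 CPM (-2.005, SE 0.34) and *Eif4ebp1*, an mTOR target that binds Eif4e, from 1174 ± 47 to 328 ± 22 CPM (-1.84, SE 0.14). *Myc* rose from 2.71 ± 1.97 to 25.7 ± 7.0 CPM (3.25, SE 0.57).

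Most genes of the ribosome assembly lists fell too, and differences between the lists were not tested. Of 60 biogenesis factors 57 fell and 0 rose, with a median of -1.20, and of 15 genes of RNA polymerase I and its factors 12 fell and 0 rose, with a median of -0.99. Among the biogenesis factors the largest falls were those of *Dkc1*, the pseudouridine synthase (-2.48, SE 0.23), and *Tcof1*, a nucleolar factor (-2.21, SE 0.20). Among the RNA polymerase I genes they were those of *Znrd1* (-1.79, SE 0.23) and *Polr1c* (-1.59, SE 0.18), both subunits of the polymerase. Of 6 chaperones that carry new ribosomal proteins, 5 fell and 0 rose, led by *Bccip*, a partner of Rpl23 (-1.28, SE 0.18), and *Tsr2*, a partner of Rps26 (-1.22, SE 0.18). Each list is read against the 29.7% of all genes tested that were lower.

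**Figure D5:**
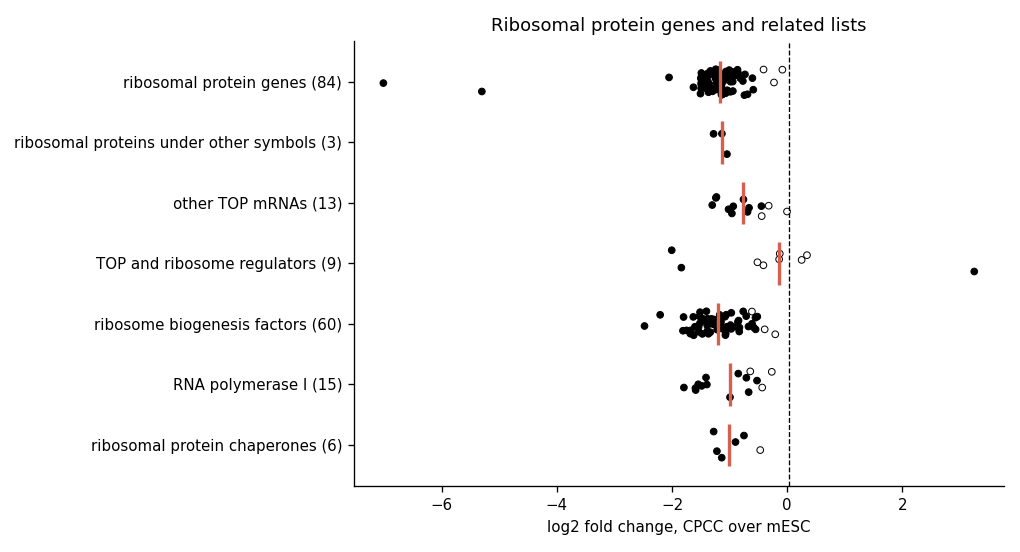
Points give the log2 fold change of CPCC over mESC for each tested gene of 7 lists, with the number tested in brackets, filled where the adjusted p was under 0.05, and with the median as a red bar and the median of all genes as the dashed line. Ribosomal protein genes (-1.17), biogenesis factors (-1.20) and RNA polymerase I genes (-0.99) have similar medians, whereas the regulators (-0.14) range from -2.005 for *Mycn* to 3.25 for *Myc*.

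The shared fall was also set beside features of other genes. The 867 other genes tested with a transcript under 1000 bases had a median log2 fold change of -0.35, and 328 of them were lower against 161 higher. The 11371 longer ones had a median of 0.08. Across 12322 genes the change and the transcript length had a Spearman's rho of 0.19, and across the 84 ribosomal protein genes it was -0.10. The 2390 other genes with a mean of at least 100 CPM had a median of -0.32, with 1090 lower and 675 higher. The medians of short genes and of highly expressed genes thus both lay between 0 and the -1.17 of the ribosomal protein genes. The part of length and of level in the fall was not tested.

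The starts of the genes were read from RefSeq (GRCm38.p6), which gave a promoter for 64 of the 85 genes, from 250 bases before to 50 bases after the start. A TOP start, taken as a C followed by at least 4 pyrimidines and beginning within 5 bases of an annotated start of the gene, was found in 30 of 64 genes (46.9%) and in 21.1% of 26961 other genes. The core motif of ETS factors, CCGGAAG on either strand, was found in 26 (40.6%) against 9.86%. The E-box CACGTG was found in 9.38% against 8.09%, and TATAAA on either strand in 12.5% against 15.7%. The median log2 fold change was -1.14 in 30 genes with a TOP start, of which 27 fell, and -1.14 in 33 without, of which 33 fell. It was -1.14 in 26 genes with the ETS core, of which 24 fell, and -1.15 in 37 without, of which 36 fell. These differences were not tested. The scan relies on annotated starts, so a gene without a hit may still have a TOP tract. The pattern was also met in 21.1% of other genes, so the split by TOP start is approximate.

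The 30 bases around the start, 10 before and 20 from the start on, are given for 3 genes with a typical TOP start, picked after their values were seen, and for 3 paralogs with their parents, the pairs with the largest differences in ratio and the pair that was not called, with the pyrimidine tract in capitals where one was found. They lie, in the order printed, at chr4:86857348-86857377 (minus), chr7:45718061-45718090 (plus), chr14:18270967-18270996 (minus), chr16:10170218-10170247 (plus), chrX:37085203-37085232 (minus), chr12:66284382-66284411 (minus), chrX:74270806-74270835 (plus), chr9:66946076-66946105 (plus) and chr3:90213629-90213658 (minus) of GRCm38.
Rps6: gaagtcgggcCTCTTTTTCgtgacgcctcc
Rpl18: ctcgcaggccgCTCTTTCCCCgcccactcc
Rpl15: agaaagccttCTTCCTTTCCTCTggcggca
Rpl39l: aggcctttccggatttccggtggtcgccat
Rpl39: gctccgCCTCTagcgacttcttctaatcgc
Rpl10l: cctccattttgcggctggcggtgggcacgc
Rpl10: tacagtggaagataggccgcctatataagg
Rps27l: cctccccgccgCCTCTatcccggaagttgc
Rps27: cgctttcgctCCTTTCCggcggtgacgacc

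Neither *Rpl39l* nor *Rpl10l*, the genes with the largest falls, held a TOP start in this window, and neither did *Rpl10*. *Rps6*, *Rpl18* and *Rpl15*, which held one, changed by -1.29, -1.42 and -0.98. *Rps27* and *Rps27l*, which were not called, also held one.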

How the data were processed

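Bulk polyA RNA-seq was analysed in 3 mESC and 3 CPCC libraries. Allele-specific, single-cell and chromatin data were not analysed here. The authors deposited estimated counts per gene, unnormalised, in 1 table per cell type. The labels name STAR 2.7 and mm10, and the counter and its use of strand are not given in the sources used here. In each library 17.9% to 21.5% of values were not whole. Counts were rounded, genes in both tables (13001) were filtered by filterByExpr (12471 left), and groups were compared by edgeR 4.0.16 (quasi-likelihood, TMM, R 4.3.3), with DESeq2 1.42.0 as an alternative. CPM are TMM-normalised and relative, so a change in total RNA per cell is not seen. The SE is the absolute log2 fold change over the square root of F. Copies were found with blastn 2.17.0 in GENCODE M21 transcripts. Replicates are clones, but p-values and SEs measure the spread between these libraries only. The floor of 3 counts covers counting error only.

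Members and gene lists were chosen with earlier results of these data known. Named were the 8 largest rises (none) and falls, all paralogs, members in 1 table only, P stalk, 5S and X-linked genes, *Rps6*, *Rps27a*, the 3 with most counts, the least changed, and in other lists 2 per direction. The test was tried on simulated data. One gene of the related lists is not reported here.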

Additional observations from a re-analysis of the deposited data

How the results depend on the processing

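No member was higher in CPCCs under any of the 18 alternatives, and the number lower stayed between 76 and 82 in all but one, a test against a 2-fold change, which called 27 members and 10.8% of all genes. Leaving out each library in turn gave 76 to 80 members lower. The median of the members lay between -1.24 and -1.07. With missing genes set to 0 counts the median of all genes was 0.17, and relative to the median of all genes that of the members lay between -1.31 and -1.10 in every alternative. The mean share of counts was 35084.5 per 1000000 in mESCs with -ps rows added, and 37939.5 in mESCs and 15988.5 in CPCCs with near-identical copies added too, since more rows are summed. *Rps27*, never called, changed by 0.0058 with at least 10 counts required in every library and between -0.28 and 0.047 when libraries were left out in turn, the latter without S06. The difference in log2 ratio of *Rpl36al* to *Rpl36a*, also within its spread, lay between -0.11 and 0.17 over the same fits, and the cause was not tested. With near-identical copies added, the difference for *Rps27l* to *Rps27* turned to 0.23, from adding *Rps27rt* to *Rps27*. Of 34 members named with values here, 17 kept their call and direction under every alternative that tested them, and most of the other 17 changed under the 2-fold test only. *Rpl39l* and *Rpl10l*, the largest falls, were not tested where at least 10 counts were required in every library. *Rpl9*, *Rps12* and *Rps21* each lost their call without 2 or 3 of the libraries in turn (adjusted p up to 0.090, edgeR). No paired analysis was possible because the columns carry no replicate numbers.

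Low counts limit *Rps27*, *Rpl34*, *Rpl38* and *Rpl3l*, and copies limit the level of single genes.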
